A study of Mus musculus with 11 samples.

Results

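A set of 10 enzymes of serine, asparagine and one-carbon metabolism was followed through the islet RNA counts. They are Asns, Phgdh, Psat1, Psph, Shmt1, Shmt2, Mthfd2, Mthfd1l, Aldh1l2 and Pck2. The choice was made by name, as amino acid synthesis and folate enzymes held to be driven by the transcription factor ATF4. These are 10 of the 32285 genes in the count table. All 10 passed the filter on low counts that left 15093 genes to test.

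Islets came from 16-week-old mice that had received a high-fat diet for 4 weeks. One genotype was named βZKO-Mip, a deletion of Zzef1 meant to be restricted to beta cells, and the other was the littermate control. The labels do not spell out the driver of the deletion. Islets of each genotype were exposed for 24 h to azoramide at 10 µM, a compound described as tuning how cells fold proteins under endoplasmic reticulum stress, or to DMSO, its solvent, for which the labels give the same 10 µM. The groups held 3 control DMSO, 3 control azoramide, 2 knockout-labelled DMSO and 3 knockout-labelled azoramide libraries. Each was a pool of islets from at least 3 mice of a genotype, and the labels do not say whether the pools of different treatments shared mice.

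Serine is made from the glycolytic intermediate 3-phosphoglycerate by Phgdh, Psat1 and Psph in turn. Serine hydroxymethyltransferases pass a carbon of serine to folate, and in mitochondria the carbon is carried on by Mthfd2, Mthfd1l and Aldh1l2, which end in formate or carbon dioxide. Asns makes asparagine from aspartate, and Pck2 makes phosphoenolpyruvate from oxaloacetate inside mitochondria. Many of these genes are textbook targets of the transcription factor ATF4, which is translated when the initiation factor eIF2 is phosphorylated during endoplasmic reticulum stress or amino acid shortage. Protein load in the endoplasmic reticulum is high in beta cells because of proinsulin synthesis.

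Library totals were 16832800 to 19501813 counts. The treatments lay apart on the first principal component (38.2% of the variance). On the second, control DMSO library 2 and knockout-labelled azoramide library 3 lay at opposite ends, so values are also given without them where that matters. Every beta, alpha, delta and PP cell marker examined was read in every library, and summed hepatocyte markers did not exceed 1.18 CPM, that is counts scaled to library size. Zzef1 was at 97.2 ± 12.2 CPM (SD, n = 3) in control DMSO and 81.5 ± 2.9 (n = 2) in knockout-labelled DMSO islets, without overlap. The log2 fold change was -0.26 (95% interval -0.44 to -0.07). By edgeR's quasi-likelihood test its unadjusted p was 0.00927 and its p adjusted over all tested genes 0.999. Groups lay apart for 19.4% of all tested genes in that comparison. Zzef1 fell with azoramide in control islets (-0.55, edgeR adjusted p = 3.46e-05), with -0.16 (adjusted p = 0.153) in knockout-labelled islets. With azoramide Zzef1 was at 66.6 ± 2.0 CPM (n = 3) in control and 72.8 ± 4.5 (n = 3) in knockout-labelled islets, with an edgeR adjusted p of 0.968. The genotype is therefore given throughout as labelled, and a direction between genotypes rests on these labels. In bulk islets, fewer cells of a type and less RNA per cell cannot be told apart.

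The start regions of Asns and Pck2 are shown first because these were the members past the threshold in both genotypes, in opposite directions, and because they were the members in which the composite site for C/EBP and ATF factors was found. The sequences are RefSeq's, from build GRCm38.p6. Each runs from 250 bases before the start of transcription to 50 bases after it, on the gene's strand, and the site searched on both strands is in capitals. The letters searched were TGATGNAA, where N is any base.
Asns, chr6:7693160-7693459, minus strand: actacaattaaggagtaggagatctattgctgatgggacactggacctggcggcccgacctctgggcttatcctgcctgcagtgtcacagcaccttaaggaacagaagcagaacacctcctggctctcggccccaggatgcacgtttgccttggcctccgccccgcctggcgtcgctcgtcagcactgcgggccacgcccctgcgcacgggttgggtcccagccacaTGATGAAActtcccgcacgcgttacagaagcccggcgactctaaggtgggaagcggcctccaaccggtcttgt
Pck2, chr14:55540016-55540315, plus strand: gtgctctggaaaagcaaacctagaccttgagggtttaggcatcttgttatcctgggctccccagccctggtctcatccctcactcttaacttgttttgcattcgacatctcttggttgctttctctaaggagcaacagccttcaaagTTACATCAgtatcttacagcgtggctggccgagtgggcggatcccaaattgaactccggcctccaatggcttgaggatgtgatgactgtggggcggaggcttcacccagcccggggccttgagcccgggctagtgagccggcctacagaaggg
In Asns the match was TGATGAAA on the gene's own strand, at bases -23 to -16 from the start. In Pck2 it was TGATGTAA on the opposite strand, at bases -103 to -96, and reads TTACATCA in the sequence printed. Of the members, 9 had a start region in this set and 2 of those held a match, against 3.97% of 32817 start regions and 4.51% of 27025 genes. Because the members were chosen as enzymes held to be driven by ATF4, their share with a match is not an independent result of these data. A match is a run of letters and not a measured site of binding. Aldh1l2 is the member without an entry.

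Levels per kilobase of the principal transcript placed Asns first by a wide margin. In control DMSO islets Asns stood at 154 ± 17.7 CPM per kilobase (SD, n = 3), with no overlap with the next member. Phgdh followed at 63.7, then Mthfd2 at 57.6, Psat1 at 43.5, Pck2 at 42.1, Shmt2 at 40.1, Aldh1l2 at 33.4 and Psph at 28.2 CPM per kilobase. The range of each member in that stretch overlapped that of the next. Within each control DMSO library, though, Phgdh lay above Mthfd2, followed by Psat1, Shmt2, Aldh1l2 and Psph in that order. Pck2 lay above Psat1 in library 3 and under Shmt2 in library 2, so its place is not resolved. Mthfd1l was at 19.2, and Shmt1, the cytosolic hydroxymethyltransferase, was last at 0.358 CPM per kilobase.

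With azoramide the order of the group means shifted in the middle. In control islets Psph moved from the eighth place to the fifth, at 37.7 CPM per kilobase, and Pck2 from the fifth to the seventh, at 31.4. In knockout-labelled azoramide islets Psph was at 41.5 and Pck2 at 33.7 CPM per kilobase. Asns remained first, at 216 in control and 226 in knockout-labelled azoramide islets.

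**Figure D1:**
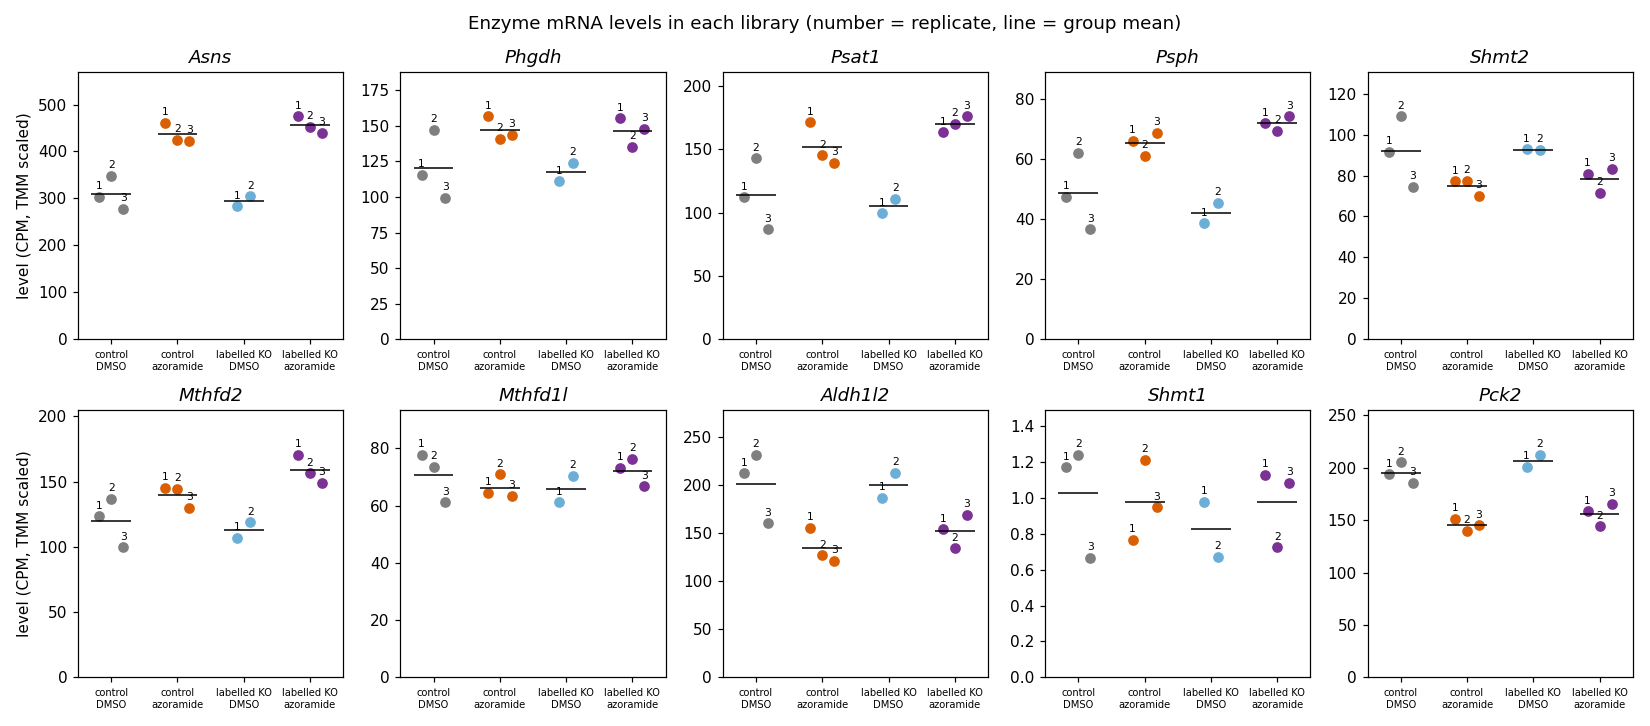
Level of each of the 10 enzymes in every library, in CPM after TMM scaling, with a panel and a linear axis from 0 for each enzyme; points are libraries with their replicate number, in columns by group, and lines are group means. Asns is higher and Pck2 lower in every azoramide library than in every DMSO library, and Shmt1 stays between 0.666 and 1.24 CPM.

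Azoramide was compared with DMSO in each genotype in 1 fit of all 11 libraries. In control islets 1 of 10 members rose (Asns) and 2 fell (Aldh1l2, Pck2), where 39.0% of all tested genes were called, 19.3% higher and 19.8% lower. In knockout-labelled islets 4 rose (Asns, Psat1, Psph, Mthfd2) and 1 fell (Pck2), where 39.8% of all tested genes were called, 20.0% higher and 19.8% lower. By edgeR at this threshold, the share of members called, 3 of 10 and 5 of 10, is thus near that of all genes. Asns and Pck2 were called in both genotypes. The median log2 fold change of the members was 0.07 in control and 0.28 in knockout-labelled islets, against -0.02 and -0.003 over all tested genes. The control median was 0.206 without control DMSO library 2, -0.043 without control DMSO library 3 and -0.091 when scaled to plain totals, which gave 0.127 in knockout-labelled islets. Groups did not overlap for 1 member higher and 2 lower in control islets (23.8% and 24.6% of all genes) and for 5 higher and 3 lower in knockout-labelled islets (30.2% and 31.4% of all genes). DESeq2 called 7 members in each genotype, against 38.4% and 39.2% of all genes, and without control DMSO library 2 the quasi-likelihood test called 5 members higher and 1 lower in control islets.

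Asns, asparagine synthetase, was the member raised in both genotypes. Its level was 304, 348 and 278 CPM in control DMSO libraries 1 to 3 and 461, 425 and 422 CPM in control azoramide libraries 1 to 3. In knockout-labelled islets it was 283 and 304 CPM with DMSO and 475, 452 and 440 CPM with azoramide. Every azoramide library lay above every DMSO library of either genotype. The log2 fold change was 0.49 (SE 0.0731, adjusted p = 4.96e-05) in control islets and 0.63 (SE 0.083, adjusted p = 1.53e-05) in knockout-labelled islets, by edgeR's quasi-likelihood test. Asns was called higher in both genotypes under each of 21 other settings, with log2 fold changes of 0.31 to 0.59 and of 0.44 to 0.69.

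The 3 enzymes of serine synthesis had positive fold changes in both genotypes, and passed the threshold in knockout-labelled islets for Psat1 and Psph. Phgdh, the dehydrogenase that opens the route, was at 116, 147 and 99.2 CPM in control DMSO libraries 1 to 3 and at 157, 141 and 144 CPM in control azoramide libraries. The groups overlapped through control DMSO library 2, and the log2 fold change of 0.28 (SE 0.121) had an adjusted p of 0.0871 by edgeR. In knockout-labelled islets Phgdh was at 111 and 124 CPM with DMSO and at 155, 135 and 148 CPM with azoramide. Those groups did not overlap, but the log2 fold change of 0.32 (SE 0.136) did not pass, with an edgeR adjusted p of 0.0887. It passed without control DMSO library 2 (0.32, adjusted p = 0.00262) or 3 (0.32, adjusted p = 0.0144), which enter through the shared estimate of spread.

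Psat1, the aminotransferase of the second step, was at 112, 143 and 86.8 CPM in control DMSO libraries and 171, 145 and 139 CPM in control azoramide libraries. These overlapped, and the log2 fold change of 0.42 (SE 0.160) had an edgeR adjusted p of 0.0717. With the knockout label it was at 99.4 and 111 CPM with DMSO and 163, 170 and 176 CPM with azoramide, with no overlap. Psat1 rose there with a log2 fold change of 0.69 (SE 0.182, edgeR adjusted p = 0.015). The call was lost without knockout-labelled DMSO library 1 (log2 fold change 0.62) or 2 (0.77), each of which leaves 1 library in that group. It was also lost with the mean log2 CPM of acinar markers as a covariate (0.63, edgeR adjusted p = 0.0615). The log2 fold change stayed positive in each of these fits.

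Psph, the phosphatase of the last step, was at 47.5, 62.2 and 36.7 CPM in control DMSO libraries and 66.1, 61.2 and 68.7 CPM in control azoramide libraries. These overlapped too, with a log2 fold change of 0.42 (SE 0.157, edgeR adjusted p = 0.0601). The libraries labelled knockout held 38.6 and 45.4 CPM with DMSO and 72.0, 69.6 and 74.3 CPM with azoramide. Psph rose there by a log2 fold change of 0.78 (SE 0.179, edgeR adjusted p = 0.00644), the largest of the 10 members. Without knockout-labelled DMSO library 1 it was 0.66 with an adjusted p of 0.0616. Psph shares 452 bases of its exons with Cct6a, a chaperonin subunit on the opposite strand, which rose from 133 ± 6.01 to 199 ± 4.01 CPM in control islets (n = 3 each) and by log2 fold changes of 0.58 and 0.71 in the 2 genotypes. The strand setting of the counting is not known, so the part of Cct6a in Psph was not tested.

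Control DMSO library 2 was above the mean of the other 2 control DMSO libraries for all 10 members, by 0.456 for Phgdh, 0.532 for Psat1 and 0.575 for Psph on the log2 scale. Without it the control comparison passed for Phgdh (log2 fold change 0.45, edgeR adjusted p = 0.000125), Psat1 (0.61, adjusted p = 0.00109), Psph (0.64, adjusted p = 5.18e-05) and Mthfd2 (0.33, adjusted p = 0.00733). Summed acinar markers, 14 of 15 in the table and all 14 read in every library, were at 6091 CPM in that library against 1537 and 1068 CPM in the other control DMSO libraries. They were at 2080 to 5419 CPM with azoramide in control islets, 688 and 2684 CPM in knockout-labelled DMSO islets, and 1211 to 6971 CPM in knockout-labelled azoramide islets. With the mean log2 CPM of these markers, not their sum, as a covariate, Psat1 in knockout-labelled islets was the member whose call changed.

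**Figure D2:**
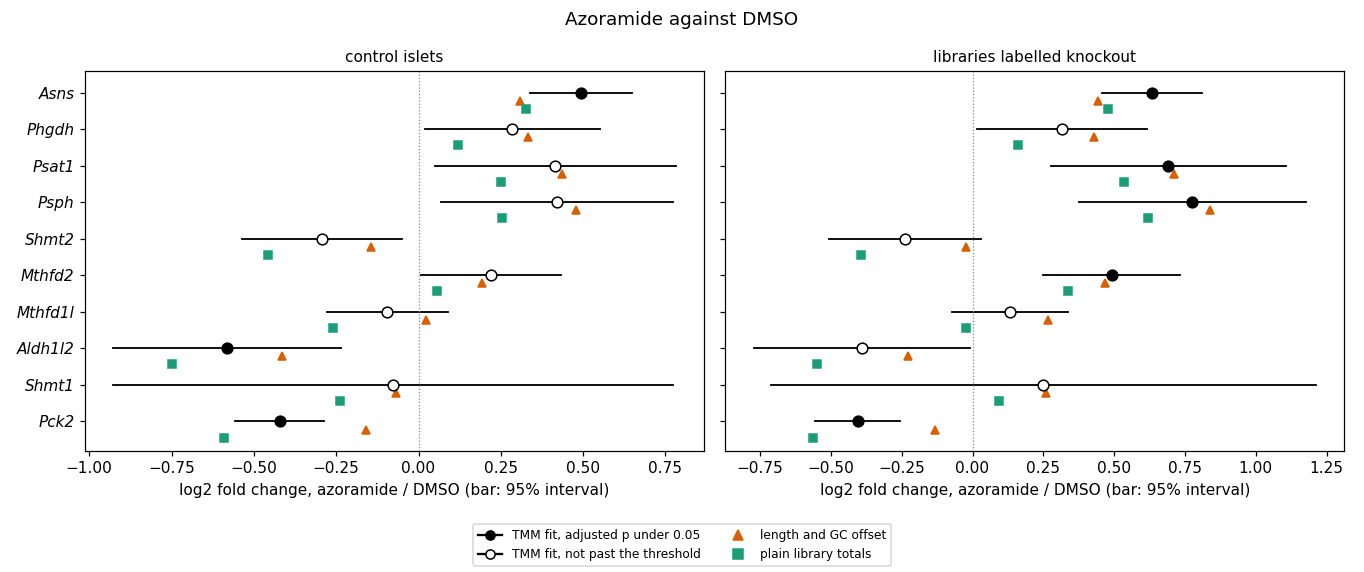
Log2 fold change of azoramide against DMSO for each of the 10 enzymes in control islets and in islets labelled knockout, as circles with 95% intervals from the edgeR fit, filled where the adjusted p is under 0.05. Triangles are the fit with a length and GC offset and squares the fit to plain library totals; Asns lies above 0 and Pck2 under 0 in both genotypes by all of these.

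Beyond serine the mitochondrial folate enzymes did not move as 1 group. Shmt2, which passes the carbon of serine to folate in mitochondria, was at 91.7, 109 and 74.6 CPM in control DMSO libraries and 77.2, 77.5 and 70.0 CPM in control azoramide libraries, with overlap. Its log2 fold change was -0.29 (SE 0.111, edgeR adjusted p = 0.0554). The libraries labelled knockout held 92.9 and 92.4 CPM with DMSO and 80.7, 71.6 and 83.2 CPM with azoramide, without overlap. The log2 fold change there was -0.24 (SE 0.123, edgeR adjusted p = 0.15), so Shmt2 passed in neither genotype. Without control DMSO library 3 it passed in both, at -0.42 (adjusted p = 0.000509) and -0.24 (adjusted p = 0.0232), and without control DMSO library 2 in knockout-labelled islets (-0.24, adjusted p = 0.0254).

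Mthfd2, the dehydrogenase and cyclohydrolase of the next steps, was at 123, 137 and 99.6 CPM in control DMSO libraries and 145, 145 and 130 CPM in control azoramide libraries, with overlap. Its log2 fold change was 0.22 (SE 0.0988, edgeR adjusted p = 0.0969). Libraries labelled knockout held 107 and 119 CPM with DMSO and at 171, 157 and 149 CPM with azoramide, without overlap. It rose there with a log2 fold change of 0.49 (SE 0.112, edgeR adjusted p = 0.0031), a call made under each of the 21 other settings.

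Mthfd1l, the ligase that releases formate, showed no call in either genotype. It was at 77.8, 73.4 and 61.1 CPM in control DMSO and 64.5, 70.9 and 63.5 CPM in control azoramide libraries, with a log2 fold change of -0.09 (95% interval -0.28 to 0.09). In knockout-labelled islets it was at 61.1 and 70.4 CPM with DMSO and 73.2, 76.3 and 66.8 CPM with azoramide, with a log2 fold change of 0.13 (95% interval -0.07 to 0.34).

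Aldh1l2, which oxidises the folate-bound carbon to carbon dioxide, had the lowest fold change in control islets. It was at 212, 231 and 160 CPM in control DMSO libraries and 156, 127 and 121 CPM in control azoramide libraries, without overlap, although control DMSO library 3 and control azoramide library 1 lay close together. It fell with a log2 fold change of -0.58 (SE 0.153, edgeR adjusted p = 0.0144). In knockout-labelled islets it was at 186 and 213 CPM with DMSO and 154, 134 and 169 CPM with azoramide, without overlap, and the log2 fold change of -0.39 (SE 0.169) had an edgeR adjusted p of 0.098 (0.0224 without control DMSO library 3). The control call was lost without control DMSO library 2 (-0.47, adjusted p = 0.0615), without control azoramide library 2 (-0.54, adjusted p = 0.0501) and with a length and GC offset (-0.41, adjusted p = 0.0875; by principal transcript -0.34, adjusted p = 0.163). Aldh1l2 shares 1056 exonic bases with D10Wsu102e on the opposite strand, which had log2 fold changes of 0.03 and 0.08 and was not called.

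Shmt1, the cytosolic enzyme, was read by 12 to 25 counts per library. It was at 0.666 to 1.24 CPM in control DMSO, 0.764 to 1.21 in control azoramide, 0.671 and 0.975 in knockout-labelled DMSO and 0.723 to 1.13 CPM in knockout-labelled azoramide libraries. The log2 fold change was -0.08 (95% interval -0.93 to 0.77) in control and 0.25 (95% interval -0.71 to 1.21) in knockout-labelled islets. Changes of that width were therefore not detectable at this depth. Shmt1 shares 184 exonic bases with Smcr8 on the opposite strand. In control DMSO islets (n = 3) Smcr8 was at 8.94 CPM per kilobase, against 0.358 for Shmt1. The strand setting of the counting is not known, so the part of Smcr8 in the Shmt1 counts was not tested.

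Pck2, the mitochondrial carboxykinase, was lower with azoramide in both genotypes. It was at 194, 205 and 186 CPM in control DMSO libraries and 151, 140 and 145 CPM in control azoramide libraries. In knockout-labelled islets it was at 201 and 212 CPM with DMSO and 158, 144 and 166 CPM with azoramide. Every azoramide library lay under every DMSO library of either genotype. The log2 fold change was -0.42 (SE 0.0647, edgeR adjusted p = 6.7e-05) in control and -0.41 (SE 0.0715, edgeR adjusted p = 0.000239) in knockout-labelled islets. A fit with an offset for the length and GC content of exons moved it to -0.16 (adjusted p = 0.0785) and -0.13 (adjusted p = 0.181), which ended both calls. With length and GC taken from the principal transcript the control call held, and that in knockout-labelled islets was lost (-0.16, adjusted p = 0.11).

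That offset was applied because azoramide fold changes ran with exonic length over all tested genes. The median log2 fold change in control islets was 0.45 for genes with at most 1000 exonic bases and -0.20 for genes over 8000, and in knockout-labelled islets it was 0.47 and -0.16. Among the members, Pck2 has the most exonic bases, 7806, and Aldh1l2 the next, 7503. Psph has 4329, Mthfd2 3487, Asns 2735 and Phgdh 2486. By principal transcript Aldh1l2 is the longest, at 6027 bases, and Pck2 the next, at 4625. On that measure Psph has 1733, Phgdh 1893, Asns 2016 and Mthfd2 2085. Asns was called higher in both genotypes with the offset. The part of length in the other members was not tested beyond that fit.

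Counts of consecutive enzymes were divided within each library, which removes library scaling, with pairs chosen after their values were seen and no test made. The ratio of Mthfd2 to Shmt2 counts was 1.26 to 1.35 in control DMSO and 1.86 to 1.88 in control azoramide libraries. In knockout-labelled islets it was 1.15 to 1.29 with DMSO and 1.79 to 2.19 with azoramide, so the ranges lay apart in both genotypes. The ratio of Shmt2 to Psph was 1.75 to 2.04 in control DMSO and 1.02 to 1.27 in control azoramide libraries. It was 2.04 to 2.40 and 1.03 to 1.12 in knockout-labelled islets. Among single tested genes, groups lay apart for 23.8% higher and 24.6% lower in control islets. In knockout-labelled islets these shares were 30.2% and 31.4%. No such share was computed for ratios of other gene pairs.

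For the other pairs the ranges lay closer together. The ratio of Psph to Psat1 was 0.422 to 0.436 in control DMSO and 0.386 to 0.494 in control azoramide libraries, and 0.389 to 0.410 against 0.409 to 0.441 in knockout-labelled islets, overlapping in both. The ratio of Psat1 to Phgdh was 0.875 to 0.971 and 0.969 to 1.09 in control islets, and 0.895 to 0.896 and 1.05 to 1.26 in knockout-labelled islets. The ratio of Mthfd1l to Mthfd2 was 0.536 to 0.630 and 0.445 to 0.490 in control islets, and 0.571 to 0.592 and 0.429 to 0.487 in knockout-labelled islets. The ranges of Mthfd1l to Mthfd2 also lay apart in both genotypes, and those of Psat1 to Phgdh in knockout-labelled islets. A ratio shows that a pair changed unequally, not which member changed.

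**Figure D3:**
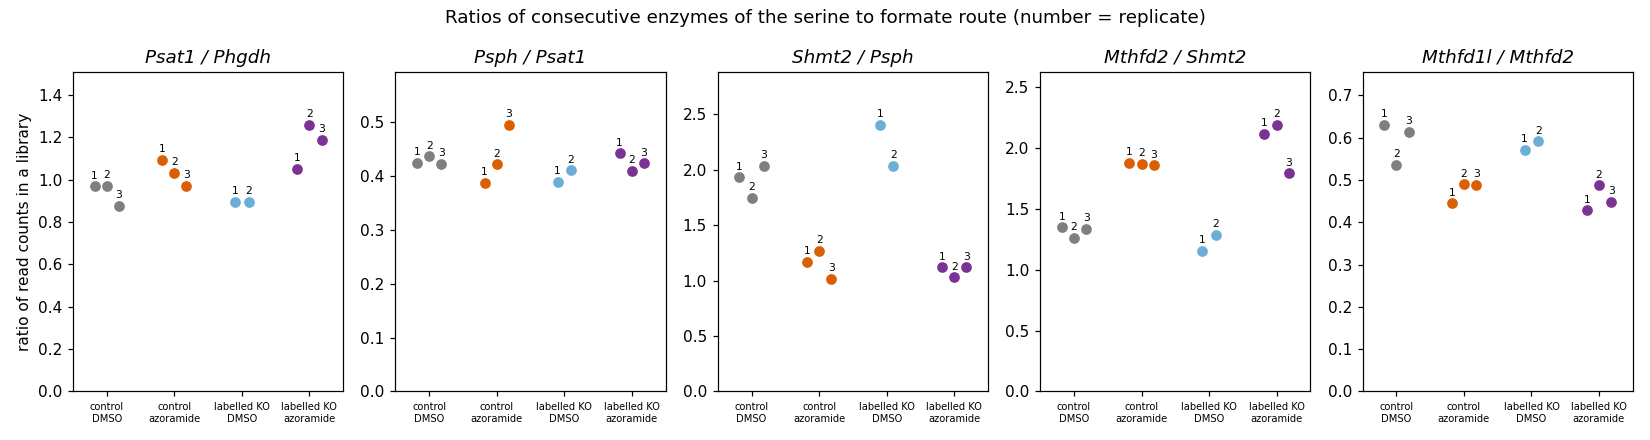
Ratios of counts between consecutive enzymes of the serine and mitochondrial folate route, with 1 point per library, marked with its replicate number, in columns by group and a panel for each pair. The Mthfd2 to Shmt2 ratio is 1.15 to 1.35 with DMSO and 1.79 to 2.19 with azoramide, while Psph to Psat1 overlaps between treatments.

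Genotype was compared at each treatment, to ask whether libraries labelled knockout differed in these enzymes. No member was called with DMSO or with azoramide by edgeR's quasi-likelihood test, where 0% of all tested genes were called in either comparison. An unadjusted p under 0.05 was reached by 0 members in both, and by 531 (3.52%) and 754 (5.0%) of all genes. DESeq2 called 0 members in both, and 3 (0.0199%) and 2 (0.0133%) of all genes. With DMSO the members' log2 fold changes ran from -0.32 (Shmt1) to 0.09 (Pck2), with 2 of 10 above 0 (7 of 10 without control DMSO library 2), and every member's groups overlapped, where 19.4% of all genes had groups that did not. With azoramide they ran from -0.01 (Phgdh) to 0.18 (Mthfd2), with 9 of 10 above 0 and 8 to 10 of 10 over the other settings. The median was 0.11, against 0.0007 over all tested genes. Libraries labelled knockout lay above the control libraries without overlap for Psph and Mthfd2, 2 of 10 members, where 11.1% of all tested genes had groups apart in either direction. The 95% interval of the log2 fold change was -0.03 to 0.40 for Mthfd2, -0.21 to 0.49 for Psph and -0.09 to 0.22 for Asns.

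The interaction, the azoramide effect in knockout-labelled islets minus that in control islets, asked whether the response differed. It was called for no member and for 0% of all tested genes by edgeR, with an adjusted p of 0.999 for each member; DESeq2 called 0 members, and 0 members against 3.73% of all genes had an unadjusted p under 0.05. The largest value was 0.36 for Psph (95% interval -0.17 to 0.89), followed by 0.33 for Shmt1 (-0.96 to 1.61), 0.28 for Psat1 (-0.27 to 0.82) and 0.27 for Mthfd2 (-0.05 to 0.59). Asns was at 0.14 (-0.09 to 0.37) and Pck2 at 0.02 (-0.19 to 0.22). All 10 values lay above 0, with a median of 0.21 against 0.007 over all tested genes. Without control DMSO library 2, 7 of 10 lay above 0 and the median was 0.078. The calls for Psat1, Psph and Mthfd2 in 1 genotype alone are therefore not shown to differ between genotypes.

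**Figure D4:**
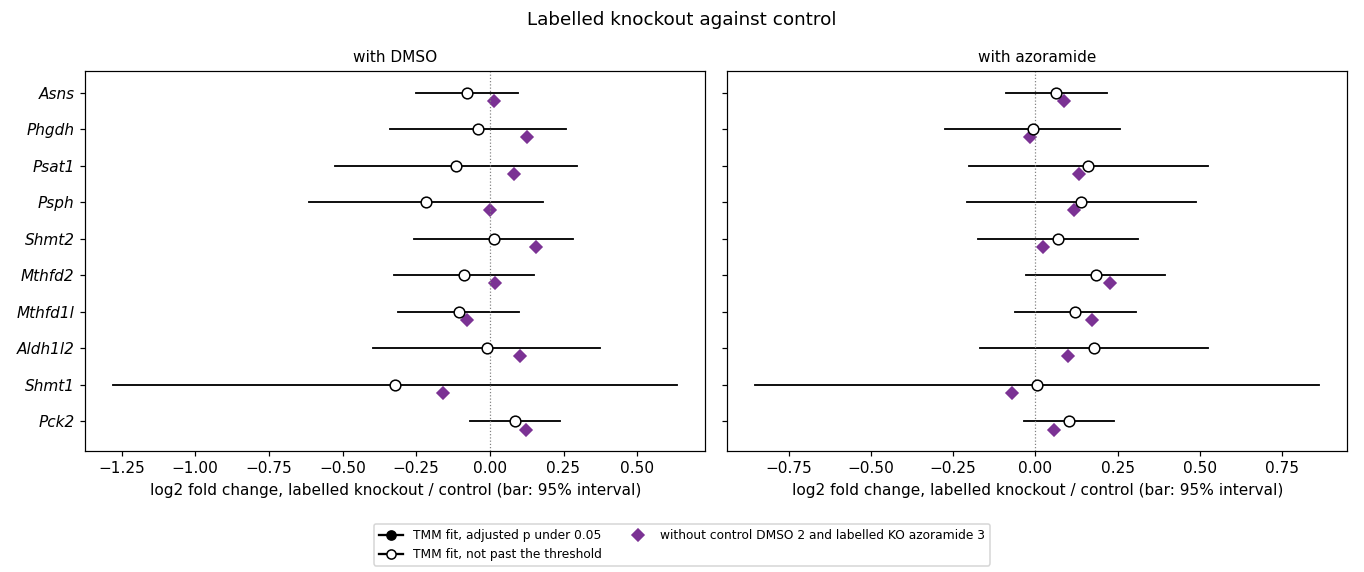
Genotype difference (labelled knockout minus control, log2) at each treatment for each of the 10 enzymes, as open circles with 95% intervals from the edgeR fit, all of which include 0. Diamonds are the fit without control DMSO library 2 and knockout-labelled azoramide library 3. With DMSO, 7 of 10 values lie above 0 in that fit, against 2 of 10 in the main fit.

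Partners of the members in another compartment and a direct paralog were examined beside them. Mthfd1, the cytosolic enzyme with several folate activities, had log2 fold changes with azoramide of -0.20 (edgeR adjusted p = 0.0533) in control and -0.22 (adjusted p = 0.0618) in knockout-labelled islets. Mthfd2l, the paralog of Mthfd2, had 0.15 and 0.26 (edgeR adjusted p = 0.529 and 0.304), and Aldh1l1, the cytosolic relative of Aldh1l2, had -0.45 and 0.24 (edgeR adjusted p = 0.235 and 0.582). None of the 3 was called in either genotype. Pck1, the cytosolic carboxykinase, was at 0 to 0.28 CPM and was too low to test.

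A wider list of serine, asparagine, proline and folate genes held 61 tested genes. With azoramide 19 rose and 9 fell in control islets, with a median log2 fold change of 0.15, and 14 rose and 8 fell in knockout-labelled islets, with a median of 0.09. The shares over all tested genes were 19.3% higher and 19.8% lower in control islets and 20.0% and 19.8% in knockout-labelled islets. Scaled to plain library totals the split turned to 9 higher and 17 lower in control and 11 and 17 in knockout-labelled islets, with list medians of -0.03 and -0.06; that scaling moved the median log2 fold change of all genes to -0.187 and -0.159. The offset for length and GC gave 16 higher and 1 lower, and 12 and 1. In control islets 5 were lower without azoramide library 2 or 3. In knockout-labelled islets 3 were lower without DMSO library 1, azoramide library 1 or azoramide library 2, and 1 without DMSO library 2. The list median ran from 0.089 (without control DMSO library 1) to 0.148 in control islets and from 0.043 (without azoramide library 2) to 0.093 in knockout-labelled islets over the fits with 1 library left out. Of the genes described by name, Ggh, which trims folate polyglutamates, had log2 fold changes of 0.68 and 0.65, Serinc1 0.55 and 0.63, Asnsd1 0.51 and 0.51 and Serinc3 0.37 and 0.35 in control and knockout-labelled islets. On the falling side, Pcx, pyruvate carboxylase, which supplies oxaloacetate, had -0.53 and -0.75, Aldh18a1, of proline synthesis, -0.35 and -0.25, and Sfxn2 -0.30 and -0.23. Each of the 7 was called in both genotypes, although in knockout-labelled islets the call was lost in 12 of 21 other settings for Aldh18a1 and in 6 for Sfxn2.

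The list of other ATF4 and CHOP regulators and targets held 52 tested genes. In control islets 12 rose and 9 fell, with a median log2 fold change of -0.06, and in knockout-labelled islets 12 rose and 6 fell, with a median of 0.03. The shares of all tested genes were 19.3% higher and 19.8% lower in control and 20.0% and 19.8% in knockout-labelled islets. The count of 6 of 52 lower in knockout-labelled islets is under its share, and the other counts are near theirs. The control median was 0.042 without control DMSO library 2 and -0.148 without control DMSO library 3, and that of knockout-labelled islets -0.027 and 0.103 without their DMSO libraries 1 and 2. Plain library totals gave 4 higher and 17 lower, and 6 and 14, and the length and GC offset gave 8 and 3, and 8 and 2. Without control azoramide library 1 the control count was 7 higher and 8 lower. That of knockout-labelled islets was 6 and 5 without their DMSO library 1, 7 and 5 without their DMSO library 2, and 17 and 10 without control DMSO library 2. Atf4 itself had a log2 fold change of 0.31 (edgeR adjusted p = 0.0421) in control and 0.44 (adjusted p = 0.0136) in knockout-labelled islets. Its control call was lost in 15 of 21 other settings. Ddit3, which encodes CHOP, had 0.49 (edgeR adjusted p = 0.0306) and 0.69 (adjusted p = 0.0105), with the control call lost in 8 of 21. In knockout-labelled islets the calls were lost in 5 and 3 of 21.

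Among the other named genes of that list, Eif2s1, a subunit of eIF2, rose by log2 fold changes of 0.58 and 0.75, and Eif2b3 by 0.58 and 0.80 and Eif2b1 by 0.50 and 0.37, in control and knockout-labelled islets. The last 2 encode subunits of its exchange factor eIF2B. The other eIF2B subunits, Eif2b2 (-0.03 and -0.09), Eif2b4 (0.05 and 0.09) and Eif2b5 (0.04 and 0.10), were called in neither genotype and are named here after their values were seen. Tcea1, a transcription elongation factor, had 0.30 and 0.35, and the fit with the offset put it at -0.036 and -0.049. Rgs16 fell by log2 fold changes of -0.65 and -0.68, Slc7a5, an amino acid transporter subunit, by -0.44 and -0.43, Sesn2 by -0.44 and -0.52, and Eif2ak3, which encodes the kinase PERK, by -0.36 and -0.26. Of 14 glycolytic enzymes around 3-phosphoglycerate, azoramide raised 1 and lowered 2 in control islets, and raised 4 and lowered 1 in knockout-labelled islets, where 39.0% and 39.8% of all tested genes were called. Over the fits with 1 library left out these counts ran from 1 to 6 higher and 1 to 5 lower in control and from 1 to 7 higher and 1 to 2 lower in knockout-labelled islets. Control DMSO library 1, with the highest mean level of this list, gave 6 and 7 higher when left out, and control DMSO library 3 gave 5 lower; in knockout-labelled islets 1 was higher without DMSO library 1, DMSO library 2 or azoramide library 1.

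Other cell types differed between treatments in the same libraries. Summed alpha cell markers, 6 of 6 read in every library, were at 14320 to 16430 CPM with DMSO and 23560 to 27680 CPM with azoramide. Summed beta cell markers, 10 of 10 read, were at 140000 to 142600 CPM in control DMSO and 152200 to 193000 CPM in control azoramide libraries, and at 130200 to 133400 and 141100 to 175000 CPM in knockout-labelled islets. A few very abundant genes carry that sum, and single beta cell markers went both ways. With azoramide 4 of 10 were called higher and 4 lower in control islets, and 3 higher and 4 lower in knockout-labelled islets. Ins1 (-0.46 and -0.50), Nkx6-1 (-0.73 and -1.02), Pdx1 (-0.39 and -0.51) and Mafa (-0.74 and -0.73) had lower log2 levels in control and knockout-labelled islets, and Iapp (0.77 and 0.75), Ucn3 (0.55 and 0.52) and G6pc2 (0.76 and 1.04) higher ones, each of the 7 called in both in the TMM fit; these genes were named after their values were seen. Summed endothelial markers were at 301 to 313 CPM with DMSO and 213 to 274 CPM with azoramide. Their part in the results for the enzymes was not tested.

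For the 2 members called in both genotypes, the gene with the most similar profile was sought among 9881 tested genes of sufficient level. For Asns it was Abce1, with a root mean square difference of 0.0427 in centred log2 CPM over 11 libraries. The nearest member was Psat1 at 0.11, only in place 404 among the 9881 genes. For Pck2 it was Fam83h, at 0.0413 over 11 libraries. The nearest member was Shmt2 at 0.125, only in place 1094.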

How the data were processed

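The authors deposited raw, unnormalised read counts per gene in 1 table with a column for each of 11 islet libraries. STAR 2.7.2a, mm10 and DESeq2 are named in the submitters' processing notes, DESeq2 with no role. How reads were counted, on which annotation and with which strand setting, is not given in the sources used here; reads of overlapping genes cannot be told apart. Columns were matched to samples by the labels, and groups came from the sample titles.

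Counts were fitted in R 4.3.3 with edgeR 4.0.16 (robust quasi-likelihood test, TMM scaling, filter on low counts by group) in 1 fit of 4 groups. P-values were adjusted by the Benjamini-Hochberg method for the 15093 genes, with a threshold of 0.05. Intervals are 95% intervals of that fit. CPM are counts scaled to the TMM library size. The prior count was 2 for log2 CPM. Lengths and positions came from GENCODE M21, the annotation of GRCm38. Chi-square comparisons of counts found no pair of libraries of a group within sampling noise. The steps were tested on simulated data.

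The members and lists were chosen with earlier results of these data known. The naming rule took all members; up to 4 rising and 4 falling genes of smallest p in control islets from each of the 2 wider lists; relatives of members; Atf4, Ddit3 and Zzef1; and the most similar gene to each member called in both genotypes. One gene that the rule gives is not reported here. Cct6a, D10Wsu102e and Smcr8 were named for overlap with members. The extract protocol in the labels speaks of biological replicates, but samples of different treatments may share mice. Alternatives were DESeq2 1.42.0, other scaling and filters, fits of only the groups compared, libraries left out, a replicate block, an acinar covariate and length and GC offsets; the offset by principal transcript was added after seeing the data.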

Additional observations from a re-analysis of the deposited data

How the results depend on the processing

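Over 21 other settings, 186 of 210 member values kept their side of the threshold and, if called, their direction in control islets, with 6 calls lost and 18 gained; in knockout-labelled islets 186 of 210 did, with 7 lost and 17 gained. No called member changed sign. Genotype and interaction values stayed uncalled in all settings run. In control islets, 1 member higher and 2 lower became 1 higher and 4 lower with plain totals, 4 higher and 3 lower with DESeq2, 5 higher and 1 lower with both libraries that stood apart left out, 1 higher and 0 lower with the length and GC offset and 1 higher and 1 lower with its principal-transcript form. Leaving out 1 library at a time gave 1 to 5 higher and 1 to 3 lower; the extremes came without control DMSO library 2 (5 higher, 1 lower), control azoramide library 2 (1 lower) and control DMSO library 3 (3 lower). In knockout-labelled islets, 4 higher and 1 lower became 4 higher and 3 lower with plain totals, 5 higher and 2 lower with DESeq2, 5 higher and 3 lower in the fit of only the groups compared, 5 higher and 2 lower with both libraries left out, and 0 lower with either offset (4 higher, or 5 by principal transcript). Leaving out 1 library gave 2 to 5 higher (2 without knockout-labelled DMSO library 1) and 1 to 3 lower (3 without control DMSO library 3, 2 without control DMSO library 2). The offset turned Tcea1 to -0.036 and -0.049 and, by principal transcript, to -0.023 and -0.047. The cause of these changes was not tested. Counting depth limits Shmt1 alone among the members.

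Correlations of deviations from the group mean, over 9882 genes, were 0.198, 0.27 and 0.052 for same-numbered libraries of the 2 treatments in control islets. There DMSO library 3 correlated more with azoramide library 1 (0.147) than with its own number. In knockout-labelled islets the same-numbered correlations were 0.156 and -0.422. The 2 DMSO libraries there deviate as mirror images (0.422 and -0.422 against azoramide library 2), so these values cannot test pairing. Over all same-numbered pairs of different groups, genotypes included, correlations ran from -0.422 to 0.358, but pairs of different genotypes cannot share mice. Library names carry the same number for both treatments of a genotype. Whether the numbers pair samples is therefore not settled, and the main fit was unpaired. With a replicate block 3 members were higher in control islets (Psat1 0.44, adjusted p = 0.0339, and Mthfd2 0.23, adjusted p = 0.0204, joined Asns) and 3 lower (Shmt2 -0.28, adjusted p = 0.00918, joined Aldh1l2 and Pck2). In knockout-labelled islets 3 were higher (Psph was lost, adjusted p = 0.0544) and 3 lower (Shmt2 -0.28, adjusted p = 0.0229, and Aldh1l2 -0.47, adjusted p = 0.0191, joined Pck2).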
